A study of Mus musculus with 6 samples.

Results

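Alpha-fetoprotein, transthyretin, the apolipoproteins and the receptor pair cubilin and amnionless are proteins that visceral endoderm makes, secretes or takes up cargo with. The set was defined as Afp, Ttr, Apoa1, Apoa4, Apob, Apom, Rbp4, Cubn, Amn and Trf, each measured by every probe set whose platform annotation names that gene alone. Of these 10 genes, 9 had such a probe set, 23 probe sets in all, out of 18193 genes and 45101 probe sets on the arrays. Trf had none and was skipped. The genes were chosen with their values on these same arrays known, in particular the uneven readings of Afp and Ttr between arrays of one group, so their levels and differences are given as a description.

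The mutant cells were YFP+ cells sorted from mutant embryos at embryonic day 9.0 that carried Isl1-cre, Rosa-YFP and Beta-catenin (loxP ex3), an allele that yields stabilised β-catenin after recombination (MUT, n = 3 arrays). They were set against YFP+ cells of the same domain and stage from wild type embryos (WT, n = 3 arrays). For the wild type the labels spell out no alleles, though sorting on YFP requires a reporter switched on there too. Cre under Isl1 control marks every cell that has expressed Isl1 and all its descendants, pharyngeal endoderm as well as precardiac mesoderm, and the number of embryos behind each array is not stated. The series speaks of independent experiments and says no more of their source, so that a p-value here reflects only how much these 6 arrays vary.

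Visceral endoderm is the absorptive epithelium around the early embryo that becomes the outer layer of the yolk sac. It secretes plasma proteins and lipoprotein particles before the liver does so, and takes up maternal proteins through the endocytic receptors cubilin and megalin. The liver bud switches on many of the same secreted proteins at about this stage, so that Afp, Ttr and the apolipoproteins mark either tissue.

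All levels below are log2 intensities as deposited, 1 per probe set and array. As a guide to background, 95% of the 27 control probe sets for bacterial transcripts averaged at or below 4.85. Of the markers of the labelled cell type, Isl1 read 7.49 to 8.72 on the MUT arrays and 9.24 to 9.77 on the WT arrays. Tnnt2, cardiac troponin T, read 9.94 to 10.28 on the MUT arrays and 10.74 to 11.12 on the WT arrays. Nkx2-5, a defining cardiac transcription factor, lay below background on the MUT arrays, at 4.17 to 4.56, and at 4.63 to 4.95 on the WT arrays. Isl1, Tnnt2 and Nkx2-5 were chosen with their values known. Of the 24 cardiac progenitor and cardiomyocyte genes listed, 16 stood lower in MUT cells and 8 higher. Among the 8 were Tbx1, with a difference of 0.41, and Myh7, with 0.12, both with overlapping groups. Embryonic globin Hbb-y of primitive red cells read 13.67 to 14.08 on the MUT arrays and 13.87 to 14.03 on the WT arrays.

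Afp encodes alpha-fetoprotein, the albumin-family carrier protein of fetal plasma. Its strongest probe set read 2.60, 9.46 and 10.001 on MUT arrays 1, 2 and 3 and 4.08, 11.51 and 11.52 on WT arrays 1, 2 and 3. Array 1 of each group lay below background and the other 2 of each group far above it, so the groups overlapped. The span of 8.92 over the 6 arrays was the widest of all 18193 genes. Afp averaged 7.35 ± 4.13 in MUT cells and 9.04 ± 4.30 in WT cells (SD, n = 3 each), and mutant minus wild type was -1.68 with a standard error of 2.52. The 5 probe sets for Afp did not behave alike: 3 of them had array 1 lowest by far in each group, with 5.06, 7.29 and 8.16 on MUT arrays 1, 2 and 3 and 4.98, 9.45 and 10.18 on WT arrays 1, 2 and 3 for the second strongest, whose array 1 readings lay just above background, whereas the remaining 2 stayed within 5.24 to 6.29 and 4.73 to 5.29 over all arrays. Differences of the 5 probe sets ran from -1.68 to -0.20.

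Ttr encodes transthyretin, which carries thyroxine and, bound to retinol-binding protein, retinol. It read 4.27, 6.42 and 8.35 on MUT arrays 1, 2 and 3 and 7.49, 10.52 and 9.66 on WT arrays 1, 2 and 3. Array 1 was the lowest in each group again, but Ttr was graded between the arrays where Afp was split. WT array 1 stayed well above background, while MUT array 1 lay below it. MUT array 3 exceeded WT array 1, so the groups overlapped. The mean was 6.34 ± 2.04 in MUT cells and 9.22 ± 1.56 in WT cells (SD, n = 3 each), a difference of -2.87 with a standard error of 1.09, or 7.33-fold lower. All 4 probe sets had lower means in MUT cells, with differences from -2.93 to -1.67. Its span of 6.25 ranked 7 among all genes.

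**Figure D1:**
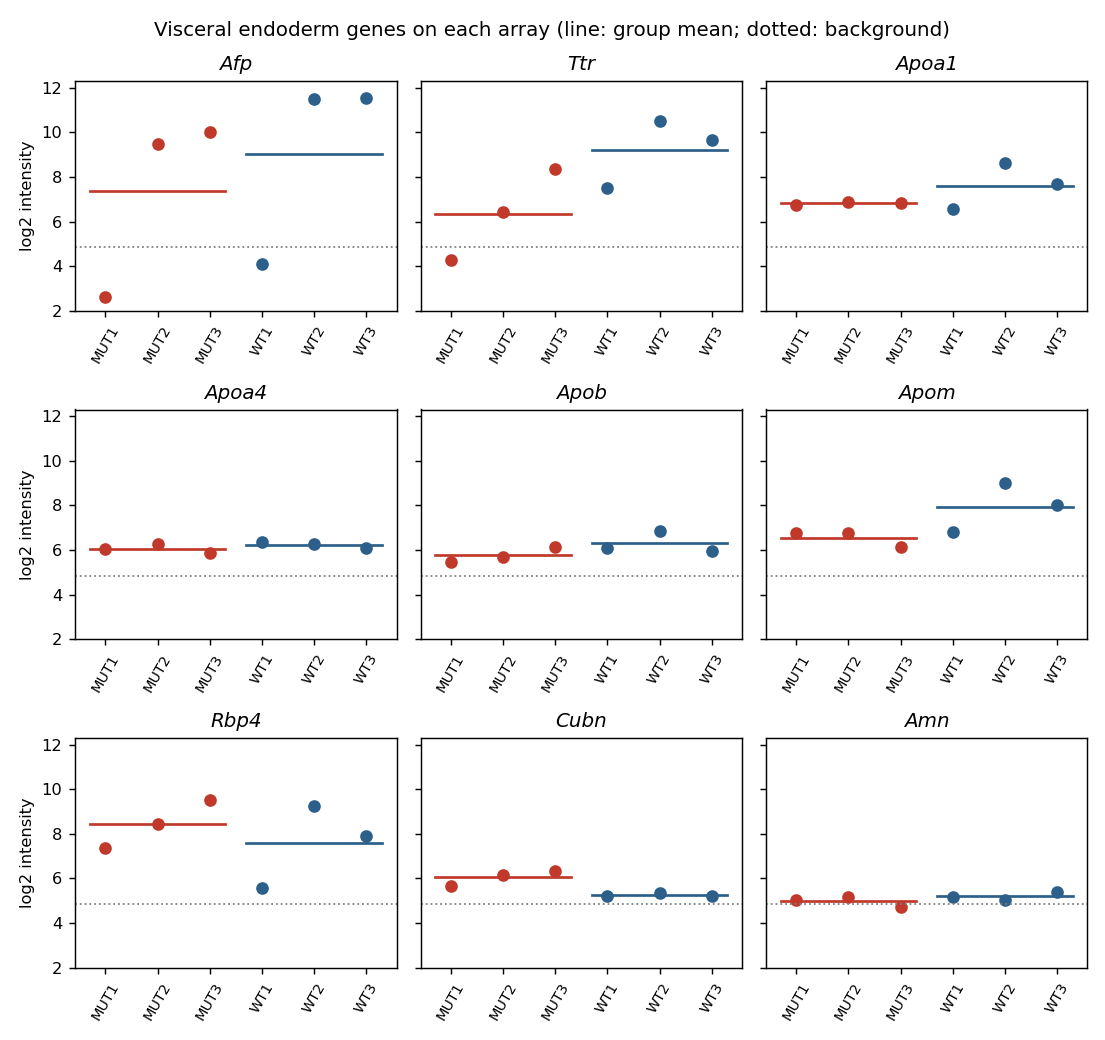
Log2 intensity (y axis) of the strongest single-gene probe set of each of the 9 genes on MUT arrays 1 to 3 (red) and WT arrays 1 to 3 (blue). Lines are group means and the dotted line is the background level of 4.85. Afp lies below it on array 1 of both groups and at 9.46 to 11.52 on the others, while Apoa4 and Amn vary by less than 1 over the 6 arrays.

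Rbp4, the plasma carrier of retinol that travels with transthyretin, followed another order. It read 7.37, 8.43 and 9.50 on MUT arrays 1, 2 and 3 and 5.58, 9.25 and 7.92 on WT arrays 1, 2 and 3. The highest reading was on MUT array 3 and the lowest on WT array 1, and the groups overlapped. The difference was 0.85 with a standard error of 0.91, opposite in sign to that of Ttr, and it rested on WT array 1: without that array it was -0.15. Rbp4 has a single probe set.

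On the strongest probe sets, the 4 apolipoproteins were above background on all 6 arrays. Means over the arrays were 7.21 for Apoa1 and 7.25 for Apom, and 6.03 for Apob and 6.15 for Apoa4. Apoa1, the main protein of high-density lipoprotein, read 6.75, 6.87 and 6.83 on MUT arrays 1, 2 and 3 and 6.55, 8.62 and 7.66 on WT arrays 1, 2 and 3. The MUT arrays were nearly level, within 0.12 of each other, while the WT arrays spanned 2.08, with WT array 1 below every MUT array. The difference was -0.80 with a standard error of 0.45, and the 4 probe sets gave -0.82 to -0.60. Apom, a lipocalin of high-density lipoprotein that carries sphingosine-1-phosphate, read 6.78, 6.75 and 6.13 on MUT arrays 1, 2 and 3 and 6.80, 9.03 and 8.02 on WT arrays 1, 2 and 3. On the strongest probe sets, Apom was the only one of the 9 genes whose MUT readings all lay below its WT readings, by a gap of 0.02 between MUT array 1 and WT array 1. Its difference was -1.40 with a standard error of 0.51, or 2.63-fold lower, and the weaker probe set gave -0.47 with overlapping groups.

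Apob, the structural protein of chylomicrons and very low density lipoprotein, read 5.48, 5.68 and 6.14 on MUT arrays 1, 2 and 3 and 6.10, 6.84 and 5.95 on WT arrays 1, 2 and 3, a difference of -0.53 with a standard error of 0.27. The groups overlapped, while on the other Apob probe set every MUT reading (3.72 to 3.81) lay below every WT reading (4.01 to 5.13), though only WT array 2 was above background. Apoa4, an apolipoprotein of chylomicrons, was flat, at 5.86 to 6.25 on the MUT arrays and 6.09 to 6.35 on the WT arrays. In the GRCm38.p6 gene table Apoa1 and Apoa4 are neighbours on chromosome 9 with Apoc3 between them, yet the span over arrays was 2.08 for Apoa1 and 0.49 for Apoa4. Afp likewise lies between Alb and Afm on chromosome 5, and those albumin-family neighbours spanned 1.17 and 0.68 against 8.92 for Afp.

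Cubn encodes cubilin, a peripheral endocytic receptor for intrinsic factor, albumin and apolipoprotein A-I, and Amn encodes amnionless, the membrane protein that anchors it. Cubn read 5.65, 6.15 and 6.35 on MUT arrays 1, 2 and 3 and 5.21, 5.36 and 5.20 on WT arrays 1, 2 and 3. Every MUT reading exceeded every WT reading, by a difference of 0.79 with a standard error of 0.19, or 1.73-fold. The second Cubn probe set gave -0.03, with overlapping groups and only 2 arrays above background. Amn stayed between 4.72 and 5.15 on the MUT arrays and between 5.06 and 5.42 on the WT arrays, close to background throughout. On the 4 arrays where Afp was high, MUT arrays 2 and 3 and WT arrays 2 and 3, Amn read 5.15 and 4.72 and 5.06 and 5.42, with 5.04 on MUT array 1 and 5.18 on WT array 1.

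**Figure D2:**
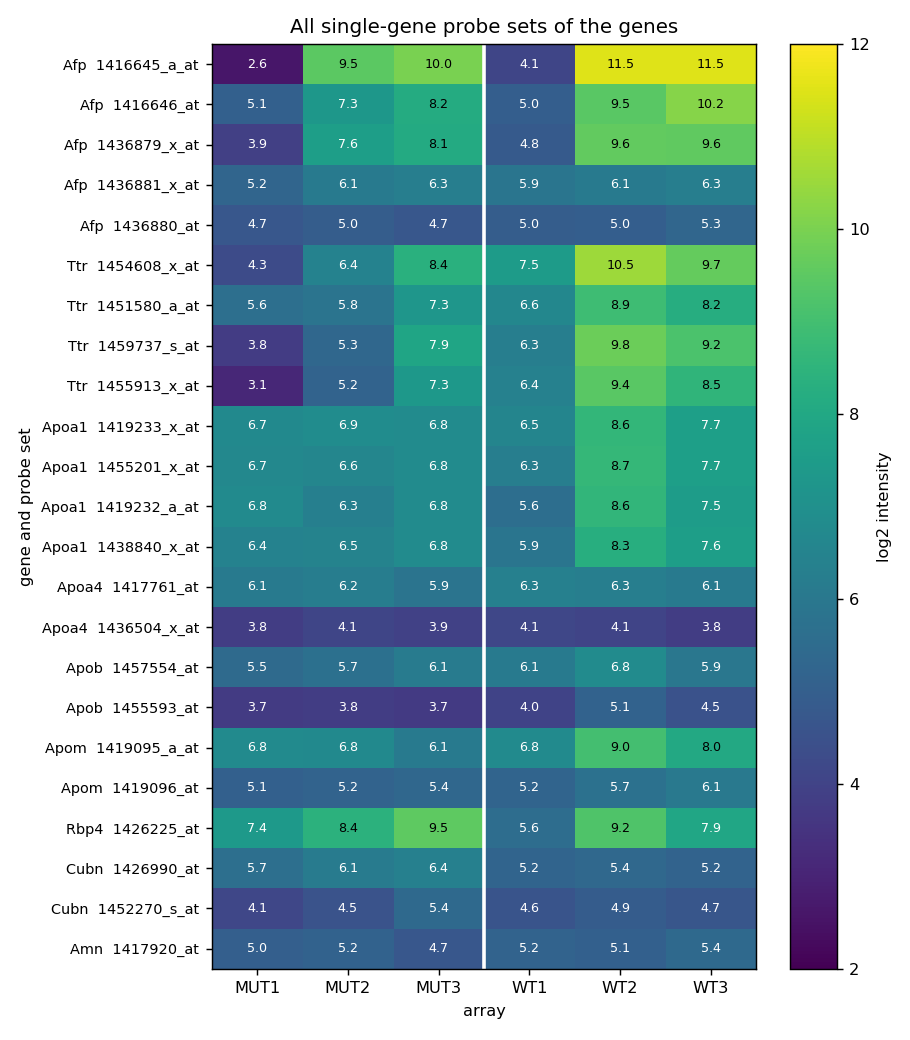
Log2 intensity of all 23 probe sets (rows, by gene) on the MUT arrays (left of the white line) and the WT arrays (right of it). Colour and number give the same value. Differences over a gene's probe sets ran from -2.93 to -1.67 for Ttr and from -0.82 to -0.60 for Apoa1, against -1.68 to -0.20 for Afp and -0.03 to 0.79 for Cubn.

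The fit over all 18193 genes (limma, Benjamini-Hochberg adjustment) called 12 genes at an adjusted p under 0.05, or 0.066% of them, all higher in MUT cells. None of the 9 genes was among them, and their adjusted p-values ran from 0.230 for Cubn to 0.819 for Afp. At an unadjusted p under 0.05 there were 3 of the 9, Ttr, Apom and Cubn, against 11.6% of all genes. The groups did not overlap in the lower direction for 1 of the 9, against 9.18% of all genes, and in the higher direction for 1, against 8.64%. Mutant minus wild type was below 0 for 7 of the 9 and above 0 for 2, with a median of -0.53, beside a median of -0.03 over all genes, of which 44.7% stood higher. Because the genes were chosen with these values known, nothing is read from these counts. Fewer cells of a type and less RNA per cell cannot be told apart in such samples.

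**Figure D3:**
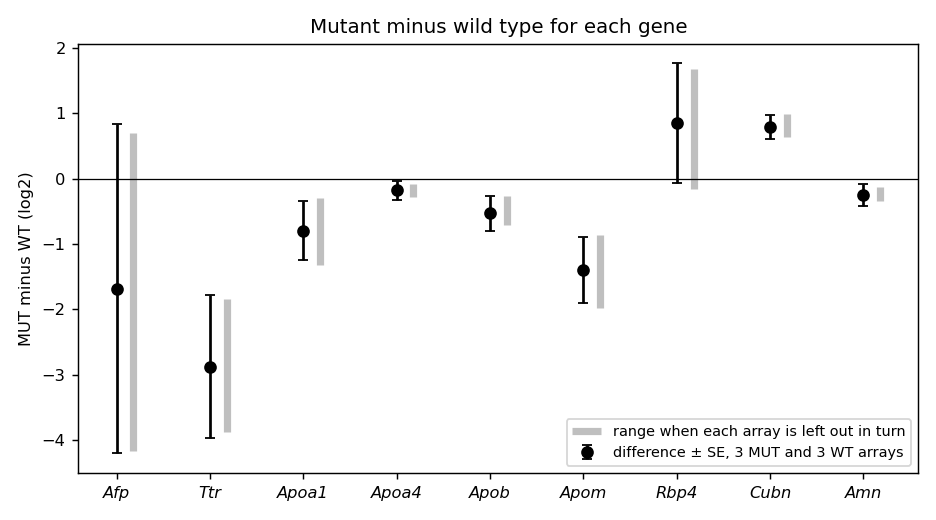
Mutant minus wild type (log2) for each gene, as points with standard errors from the fit over all genes, with grey bars for the range when each of the 6 arrays was left out in turn. The bars cross 0 for Afp (-4.16 to 0.70) and Rbp4 (-0.15 to 1.68) and for no other gene.

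The arrays numbered 1 share only that number in the labels. With both left out, the Afp difference was -1.78 (adjusted p = 0.100, limma), with 9.46 and 10.001 on the remaining MUT arrays and 11.51 and 11.52 on the remaining WT arrays. The arrays left out are those where Afp was low, which was known when the genes were chosen. Their removal takes away most of the spread of Afp within each group, so nothing is read from this adjusted p. On the remaining arrays the Ttr difference was -2.70, that of Apom -2.09, that of Apoa1 -1.29, that of Rbp4 0.38 and that of Cubn 0.97. None of these passed. In 4 of the 9 genes, Afp, Ttr, Apoa1 and Rbp4, array 1 was the lowest of its group in both MUT and WT cells, a placing that 13.5% of all genes shared. For Apoa1 the MUT arrays differed by only 0.12, and on 2 of its 4 probe sets MUT array 2 was the lowest.

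The promoter windows of Afp, Apoa1 and Apom are shown because these secreted members all had their highest readings on WT arrays 2 and 3. So had Ttr, whose window is not reported here. Each window shown runs from 250 bases before to 50 bases after the RefSeq start (GRCm38.p6), 5′ to 3′ on the gene's strand. Capitals mark matches, on either strand, to short motifs named after factors of endoderm and liver or after the TATA box: GTTAAT (an HNF1 half-site), CAAAGTNCA (HNF4 type), TGTTTNC (FOXA type), TTGCNNAA (C/EBP type) and TATAAA.
Afp, chr5:90490464-90490763, plus strand: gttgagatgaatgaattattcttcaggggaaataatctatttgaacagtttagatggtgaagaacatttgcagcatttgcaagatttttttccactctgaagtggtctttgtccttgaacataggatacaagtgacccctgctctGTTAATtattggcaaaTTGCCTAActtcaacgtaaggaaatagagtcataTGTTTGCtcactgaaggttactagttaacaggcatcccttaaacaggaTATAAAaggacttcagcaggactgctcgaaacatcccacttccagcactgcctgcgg
Apoa1, chr9:46228380-46228679, plus strand: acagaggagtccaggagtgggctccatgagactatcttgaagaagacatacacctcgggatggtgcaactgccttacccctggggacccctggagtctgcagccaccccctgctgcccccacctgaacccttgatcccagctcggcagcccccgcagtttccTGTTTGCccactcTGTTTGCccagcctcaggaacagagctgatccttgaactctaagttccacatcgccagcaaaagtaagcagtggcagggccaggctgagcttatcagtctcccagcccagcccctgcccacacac
Apom, chr17:35131752-35132051, minus strand: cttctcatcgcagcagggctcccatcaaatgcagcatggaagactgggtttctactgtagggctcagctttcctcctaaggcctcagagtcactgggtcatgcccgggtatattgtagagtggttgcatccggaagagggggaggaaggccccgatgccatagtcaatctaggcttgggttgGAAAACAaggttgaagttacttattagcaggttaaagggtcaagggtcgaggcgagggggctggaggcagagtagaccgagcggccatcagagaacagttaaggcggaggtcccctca
The Afp window held 1 match each to the HNF1, C/EBP, FOXA and TATA motifs. The Apoa1 window held 2 matches to the FOXA motif and the Apom window 1. Among all 32851 windows of that length, the HNF1 half-site occurred in 7.1%, the HNF4 motif in 1.41%, the FOXA motif in 20.5%, the C/EBP motif in 10.8% and the TATA motif in 13.6%. The matches do not overlap one another in these windows, and a match describes letters only. Of the flat or dim members, Apoa4 held 1 match to the HNF4 motif, Apob 1 each to the FOXA, C/EBP and TATA motifs, Cubn 1 to the C/EBP motif, and Amn none to any of the 5. Rbp4 has 2 annotated starts, 1 with matches to the C/EBP and TATA motifs and 1 with a match to the FOXA motif.

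Other secreted proteins of visceral endoderm, on a list without these genes, stood mostly lower, with no call. Of 23 measured, 0 passed in either direction over all genes (limma, smallest adjusted p = 0.247, 3 at an unadjusted p under 0.05), 19 had lower and 4 higher means in MUT cells, and the median difference was -0.41. In 15 of the 23, array 1 was the lowest of both groups, against 13.5% of all genes. Of the lists below, the placing held for 8 of 18 transcription factors, 10 of 24 cardiac genes and 5 of 12 liver bud genes. It held for 6 of 23 uptake and apical surface genes and for 0 of 15 primitive erythroid genes. Apoa2, an apolipoprotein of high-density lipoprotein, read 6.14, 7.08 and 7.53 on MUT arrays 1, 2 and 3 and 7.02, 8.43 and 9.04 on WT arrays 1, 2 and 3, a difference of -1.25 with a standard error of 0.54. Serpina1b, a protease inhibitor of plasma, spanned 3.24, from 3.61 to 5.32 on the MUT arrays and from 3.98 to 6.85 on the WT arrays, with a difference of -1.16. Igf2, a growth factor that mesoderm makes as well, differed by 0.23 and spanned 0.62. Fgb and Itih2, a fibrinogen chain and a plasma matrix protein chosen after their values were seen, read 5.82, 6.35 and 7.11 and 5.03, 6.33 and 6.36 on MUT arrays 1, 2 and 3. On WT arrays 1, 2 and 3 they read 6.07, 7.60 and 8.47 and 5.72, 7.34 and 7.47. Both had array 1 lowest in each group, like Afp.

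Uptake and apical surface proteins of the same epithelium were a second list, in which no gene spanned 3 or more. Of 23 measured, 0 passed (limma, smallest adjusted p = 0.231, 3 at an unadjusted p under 0.05), 13 stood higher and 10 lower, and the median was 0.25. Tfrc, the transferrin receptor that nearly all dividing cells carry, read 10.88 to 11.75 on the MUT arrays and 11.13 to 11.68 on the WT arrays, a difference of -0.18. Ctsl, a lysosomal protease, stood at 0.62 (standard error 0.15), with MUT readings of 11.40 to 11.77 above WT readings of 10.88 to 11.16, but at -0.10 with its most variable probe set. Chosen after their values were seen, Lrp2 (megalin, the partner of cubilin) read 6.69 to 7.71 on the MUT arrays and 6.56 to 7.36 on the WT arrays, and the glucose transporter gene Slc2a2 lay below background on all 6 arrays, at 3.12 to 3.92 on the MUT arrays and 2.68 to 3.78 on the WT arrays.

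Among 18 endoderm transcription factors none passed (limma, smallest adjusted p = 0.140, 3 at an unadjusted p under 0.05), 8 stood higher and 10 lower, and the median was -0.07. The 2 with the highest means were Nr2f2, an orphan nuclear receptor, with a difference of 0.03, and Gata6, a zinc-finger factor shared by endoderm and heart, with -0.02. Hnf4a, a nuclear receptor that drives many of the secreted genes and chosen after its values were seen, read 5.07 to 5.32 on the MUT arrays and 5.31 to 5.75 on the WT arrays. Foxa1, chosen likewise, read 5.84 to 6.54 on the MUT arrays and 6.58 to 7.83 on the WT arrays, a difference of -1.07. Sox17, an endoderm and endothelial factor chosen likewise, went the other way and had the list's smallest adjusted p: it read 7.69, 8.25 and 8.38 on MUT arrays 1, 2 and 3 and 6.41, 6.83 and 5.66 on WT arrays 1, 2 and 3, a difference of 1.80 with groups that did not overlap. Amn and Hnf4a were near background on all 6 arrays, whereas Dab2, an endocytic adaptor chosen after its values were seen, read 10.22 to 10.44 on the MUT arrays and 10.03 to 10.16 on the WT arrays.

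Markers of other tissues in the vicinity were measured in the same way. Of 12 liver bud genes, all measured, 9 stood lower. The summed linear intensity of the list was 1242 to 1989 on the MUT arrays and 1288 to 2482 on the WT arrays. It was lowest on array 1 of each group. Linear sums weigh the brightest genes most. Dlk1, with the highest mean of the list, read 7.89, 9.38 and 9.53 on MUT arrays 1, 2 and 3 and 7.87, 9.26 and 9.56 on WT arrays 1, 2 and 3. This list shares 3 genes with the secreted list and 3 with the transcription factors, and 1 of the 12 averaged at or below background. The pharyngeal and gut list also shares 3 genes with the transcription factors. Other lists overlap as well, so the counts of different lists are not independent. Of 20 pharyngeal and gut endoderm genes, all measured, 10 stood lower, with sums of 8703 to 14370 on the MUT arrays and 6870 to 10140 on the WT arrays, and 2 averaged at or below background. Of 15 measured primitive erythroid genes of 17, all 15 stood lower by their means, with groups that overlapped for each. Their sums were 41230 to 63860 on the MUT arrays and 51530 to 60370 on the WT arrays, lowest on MUT array 2 and highest on MUT array 3. Of the 15, 2 averaged at or below background. Ermap, a red cell surface protein, spanned 3.04 there, with 9.16, 7.22 and 10.07 on MUT arrays 1, 2 and 3 and 10.26, 9.84 and 9.42 on WT arrays 1, 2 and 3, an order unlike that of Afp. Of 14 parietal endoderm genes 12 stood higher, with sums of 14720 to 20500 on the MUT arrays and 9994 to 13310 on the WT arrays. Not all moved alike: Thbd differed by 0.002 and Pth1r by -0.10, both with overlapping groups. Krt8 and Krt18 are on the pharyngeal and gut list as well. Whether parietal endoderm or other cells gave the higher readings was not tested. Of 10 measured trophoblast genes 5 stood higher and 5 lower, of 8 decidua genes 5 and 3, and of 17 partners in retinol and iron transport 5 and 12. Of 24 cardiac progenitor and cardiomyocyte genes 8 stood higher and 16 lower, and Foxf1, a forkhead factor of lateral mesoderm with a span of 3.63, read 6.01, 8.004 and 7.64 on MUT arrays 1, 2 and 3 and 7.94, 8.48 and 9.65 on WT arrays 1, 2 and 3. For the 9 genes themselves the sums were 603.6, 1593 and 2497 on MUT arrays 1, 2 and 3 and 672.1, 6171 and 4664 on WT arrays 1, 2 and 3. No gene of these lists passed the test (limma). At an unadjusted p under 0.05 there were 1 of 12 liver bud, 6 of 20 pharyngeal and gut, 1 of 15 erythroid, 7 of 14 parietal endoderm, 1 of 10 trophoblast, 2 of 8 decidua, 2 of 17 transport partner and 10 of 24 cardiac genes, beside 11.6% of all genes. The part of these tissues in the readings of Afp and Ttr was not tested.

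**Figure D4:**
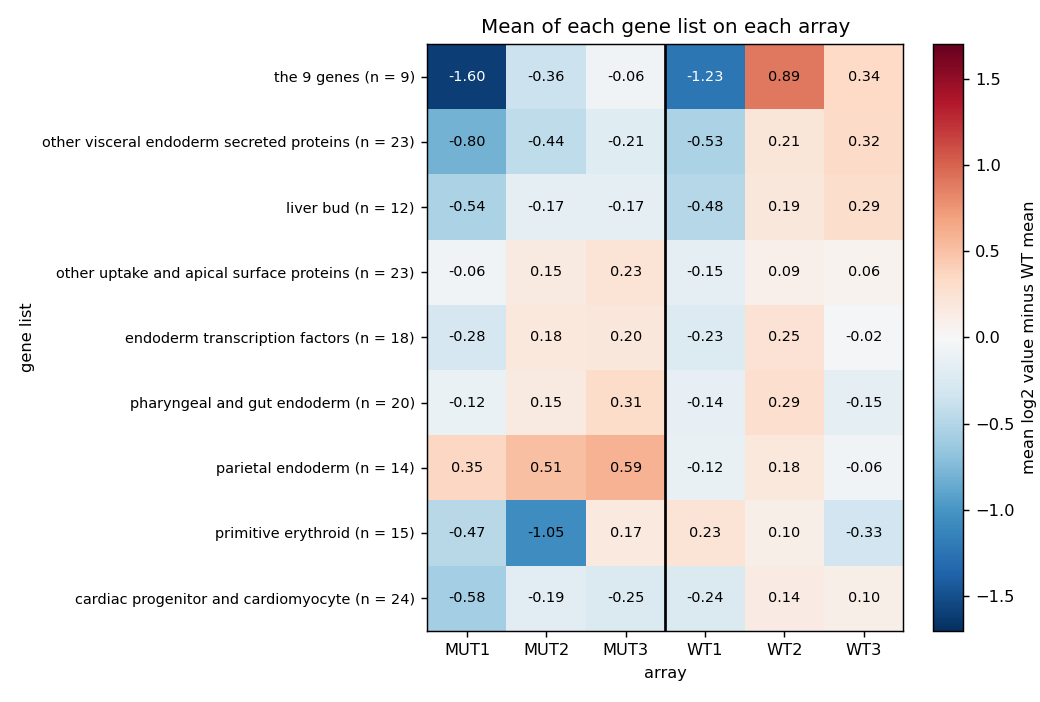
Mean log2 value of each gene list on each array (columns, MUT left of the black line), relative to the list's WT mean, without the 9 genes in the other lists. The 9 genes read -1.60 on MUT array 1 and -1.23 on WT array 1, the other secreted proteins -0.80 and -0.53, and the uptake and apical proteins -0.06 and -0.15.

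The profiles of all genes were then set against that of Afp, by the root mean square distance between log2 values centred on each gene's own mean over the 6 arrays. A perfectly flat gene lay 3.54 from Afp, and the median gene 3.54. As Afp was low on array 1 of each group, this measure favours genes that are low there too. Nothing is therefore read from that placing among the genes nearest to Afp. Of the other members, Ttr was nearest at 2.23, with rank 3 among all genes counting Afp itself, followed by Rbp4 at 2.71. The nearest gene of all, and of the genes outside the set, was Hoxb5os, an opposite-strand transcript of the Hoxb5 locus, at 1.96, and outside the set Hoxd3os1 followed at 2.29. Hoxb5os read 4.59, 7.88 and 10.86 on MUT arrays 1, 2 and 3 and 4.06, 8.88 and 7.90 on WT arrays 1, 2 and 3. Hoxd3os1 read 4.63, 6.78 and 9.48 on MUT arrays 1, 2 and 3 and 3.16, 8.43 and 6.25 on WT arrays 1, 2 and 3. Both were lowest on array 1 of each group and highest on MUT array 3, whereas Afp was highest on WT arrays 2 and 3.

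The other 10 nearest genes outside the set, with their distances, were Nepn (2.46), Dmrt2 (2.48), Aldh1a2 (2.52), Hoxb6 (2.57), Hoxb5 (2.61), Meox2 (2.65), Myom2 (2.67), Ambp (2.71), Hoxc4 (2.73) and Pgm5 (2.74). Hoxb5, Hoxb6 and Hoxc4 are homeobox genes that pattern the trunk, and Aldh1a2 makes retinoic acid in trunk mesoderm. Aldh1a2 read 6.22, 8.30 and 9.05 on MUT arrays 1, 2 and 3 and 7.09, 9.12 and 8.69 on WT arrays 1, 2 and 3. Hoxb5 read 8.17, 9.77 and 10.44 on MUT arrays 1, 2 and 3 and 8.45, 10.42 and 10.43 on WT arrays 1, 2 and 3. Nepn, nephrocan, a secreted protein known from midgut endoderm, read 6.09, 7.41 and 8.14 on MUT arrays 1, 2 and 3 and 5.80, 8.59 and 8.64 on WT arrays 1, 2 and 3. Each of these was lowest on array 1 of both groups, a placing that the choice by distance favoured. Ambp, which encodes the precursor of a plasma lipocalin and of bikunin, was the only one of the 12 on the list of secreted visceral endoderm proteins.

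**Figure D5:**
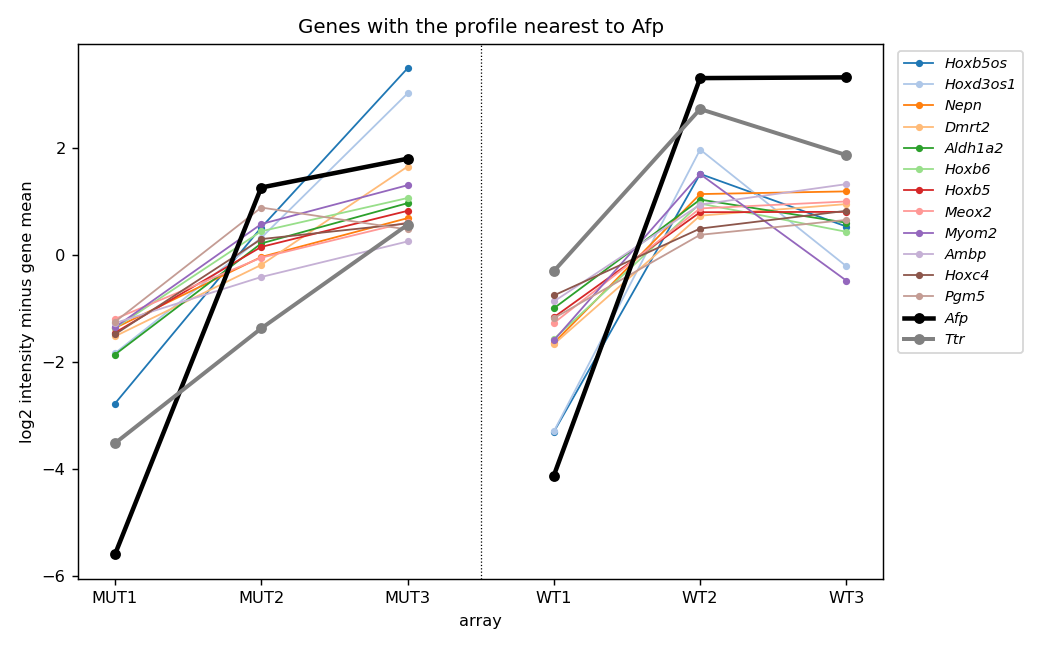
Log2 intensity minus each gene's mean (y axis) on the MUT arrays (left) and the WT arrays (right) for Afp (black), Ttr (grey) and the 12 genes outside the set of 10 with the smallest distance from Afp. All 14 lie lowest in their group on array 1, a placing favoured by choosing the 12 genes for their small distance from Afp. The amplitude of Afp, from 2.60 to 11.52, exceeds that of every other line.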

How the data were processed

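RNA of FACS-sorted YFP+ cells was amplified with the WT-Ovation Pico system, labelled with biotin and hybridised to Affymetrix arrays, per the labels' protocols. The deposited values are log2 intensities, 1 per probe set and array, made by the authors. How background was corrected and probe sets were summarised and normalized is not given here by any label or header. The log2 scale was read from the values (1.89 to 15.07), and array medians of 6.47 to 6.50 show arrays already aligned, so no further scaling was applied.

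Gene names come from GEO's platform annotation and were brought up to date from a RefSeq table (34741 of 34945 single-gene probe sets matched), and 932 with several genes, 9160 unnamed and 64 controls were left out. The probe set with the highest mean stood for its gene, and no gene was filtered. MUT and WT were compared with limma 3.58.1 in R 4.3.3 (two-sided, no covariate, 4 residual degrees of freedom), and p-values were adjusted by Benjamini-Hochberg across 18193 genes with a threshold of 0.05. A single gene tested by exact permutation of 3 against 3 arrays cannot go below p = 0.1. The number of arrays limits the precision. The fit was tested on 20 sets of simulated data for this comparison (18193 genes, 200 of them changed). The test found 75% of genes changed by 1 (log2) and 99% of those changed by 2, with 11.1 false calls on average. These shares are not given for genes as variable as Afp, Ttr and Rbp4, with standard errors of 2.52, 1.09 and 0.91.

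The members, the lists and the rules were chosen with earlier results of these data known. By rule, the genes named are all members, list genes spanning at least 3 or with the 2 highest means, and the 12 profiles nearest to Afp among genes that are no members. Of the genes with the 2 highest means, those of the secreted, uptake and transcription factor lists are printed, and also Hbb-y, Dlk1 and Myh7. Outside the rule, and with values known, the text names Isl1, Tnnt2, Nkx2-5 and Tbx1 as cell type markers, Alb and Afm as neighbours of Afp, and Fgb, Itih2, Lrp2, Slc2a2, Dab2, Hnf4a, Foxa1 and Sox17. Thbd and Pth1r of the parietal endoderm list are named likewise, and Krt8 and Krt18 only as genes that 2 lists share. Promoter sequences are RefSeq's (GRCm38.p6), with windows used for 8 of the 10 genes.

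Alternatives were the replicate number as a block, quantile normalization, median centring, leaving out the dimmest 40% of genes, other probe set choices, a trended robust prior, array weights, and leaving out arrays.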

Additional observations from a re-analysis of the deposited data

How the results depend on the processing

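None of the 9 genes passed under any of the 15 alternatives that tested it. Leaving out the dimmest 40% of genes kept 5 of the 9, so Apoa4, Apob, Cubn and Amn had 14. Of 131 values recomputed for them, 129 kept their direction and the exceptions were Afp, whose difference ran from -4.16 to 0.70 when each array was left out in turn, and Rbp4, from -0.15 to 1.68. Afp turned positive without MUT replicate 1, and Rbp4 negative without WT replicate 1. As each array was left out, Ttr ran from -3.88 to -1.84, Apom from -1.97 to -0.86, Apoa1 from -1.33 to -0.29 and Cubn from 0.64 to 0.99. Beyond these ranges, Cubn fell to 0.38 with the median over probe sets, and Apom reached -2.09 with both arrays numbered 1 left out. The lowest adjusted p of any of the 9 genes was 0.0587 (limma), for Cubn without MUT replicate 1. Among 11 other genes whose difference was recomputed, Ctsl was -0.10 with the most variable probe set, and Tfrc and Gata6 were 0.024 and 0.30 with both arrays numbered 1 left out; Tfrc ran from -0.44 to 4.7e-05 and Gata6 from -0.51 to 0.48 as each array was left out. For these changes the cause was not tested.

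The count of 12 called genes was 6 with median centring, 1 with the most variable probe set, 1 with the median over probe sets, 27 (26 higher, 1 lower) with both arrays numbered 1 left out, and 0 to 92 as each array was left out. With replicate number as a block it was 0, with 1942 genes at an unadjusted p under 0.05 (limma), and the smallest adjusted p of any gene was 0.0531. Same-numbered arrays deviated from their group means with correlations across genes of 0.108, -0.0751 and -0.0161. For arrays of unlike number these ran from -0.121 to 0.154. Such correlations over all genes cannot settle pairing for single genes. No label names a block, so the numbers were not used to pair arrays in the main fit. Whether they mark a shared experiment is not stated. With replicate number as a block, the Afp difference of -1.68 had an adjusted p of 0.0902 and Ttr 0.198 (limma). The block changed the call of none of the 9 genes. It takes up the low Afp readings on both arrays numbered 1, which were known when the genes were chosen. Nothing is therefore read from these adjusted p-values. Readings near or below 4.85 limit Amn and the weaker probe sets of Cubn, Apoa4 and Apob. They also limit the spans and differences of Afp, below background on array 1 of each group, and of Ttr, below it on MUT array 1.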

Other observations

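Trf, transferrin, shares its probe set with Srprb in the annotation, so its reading cannot be assigned to either gene and belongs in no comparison. That probe set read 5.65, 5.15 and 6.05 on MUT arrays 1, 2 and 3 and 5.38, 5.88 and 6.95 on WT arrays 1, 2 and 3.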
